A study of Mus musculus with 18 samples.

Results

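The response of Trpa1 mutant epidermis to complete Freund's adjuvant (CFA) was measured on 6 of the 18 arrays of the series, 3 from naive mutant mice and 3 from mutant mice 2 days after CFA. The arrays were chosen by their labels alone, as those of mutant epidermis. Mutant mice were K14Cre-Trpa1 fl/fl, in which exons 22 to 24 of both Trpa1 copies are flanked by loxP sites and Cre recombinase is driven by the keratin 14 promoter. That promoter is active in basal keratinocytes, and cells derived from them inherit the deletion. The study expects Cre in sweat and sebaceous glands as well. Control mice, used only where responses were compared, were K14Cre-Trpa1+/+ and therefore carried the same Cre, with 3 naive and 3 CFA arrays. All mice were adult males of at least 7 weeks, on a mixed background of C57BL/6, CBA and Swiss Webster, and the genotypes came from independently kept colonies. CFA mice had received 50 µl of the undiluted emulsion into the sole of the hindpaw. No array came from a vehicle-injected paw, so injection and adjuvant cannot be told apart. Epidermis of the glabrous hindpaw was lifted off after dispase digestion, and 100 ng of RNA was hybridised per Affymetrix Mouse Gene ST array. The remaining 6 arrays, of dorsal root ganglia, were not used.

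The epidermis renews itself from a basal layer, which is bound to the basement membrane by hemidesmosomes. Cells that leave this layer cross-link late cornified envelope proteins, loricrin and small proline-rich proteins under their membrane, secrete ceramides, cholesterol and fatty acids, and are shed after kallikrein proteases cut the desmosomes. Keratinocytes also store or secrete cytokines of the interleukin-1 family, antimicrobial peptides and ligands of the EGF receptor. CFA is an oil emulsion of killed mycobacteria, and it causes a local inflammation that lasts for days. TRPA1 is a cation channel opened by irritants such as mustard oil, best known from sensory neurons.

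Values are log2 signals per probe set, so a difference of 1 is a 2-fold change, and signals of different probe sets are not amounts that can be set against each other. Differences are signed CFA minus naive and carry their standard error, and a gene is called changed at an adjusted p under 0.05 from limma. Of 35556 probe sets, 23410 were paired with at least 1 gene and tested, and 19938 genes had a probe set of their own, the brightest of which stands for the gene. The 3 arrays of a group are the study's biological replicates. Arrays of the same group correlated across probe sets with Pearson's r of 0.994 to 0.996, and naive with CFA arrays with 0.973 to 0.98. Array medians lay between 5.4 and 5.46. Background was set per array from 1223 probe sets of chemosensory receptor genes (trace-amine, vomeronasal and odorant), as their 95th percentile, and lay between 4.57 and 4.77, and 67.6% to 69.4% of probe sets exceeded it. The Trpa1 probe set gave 3.91, 3.84 and 3.77 on the naive and 3.93, 3.78 and 3.68 on the CFA arrays, below background throughout, so it checks neither the genotype nor the response of the targeted gene. All 11 keratinocyte markers were above background, with a mean signal of 11.75 to 11.82 on naive and 12.01 to 12.11 on CFA arrays, while 17 of 23 T and NK cell markers were below it throughout. Transcripts are measured in bulk tissue, so fewer cells of a type and less RNA per cell cannot be told apart.

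The promoters of 7 genes described below are printed here, because the genes fell or rose after CFA. Their windows also hold at least 1 of the 2 motifs looked at most closely. They were chosen after their values and matches were seen. Each window runs 5′ to 3′ on the gene's strand from 250 bases before to 50 bases after the transcription start, as RefSeq gives it for GRCm38.p6. Capitals mark TGANTCA in 3 genes that fell. The letters are a loose pattern for the site of AP-1 (Fos and Jun dimers), wider than that site since N is any base. The base at N is T in Rptn and C in Cpa4 and Il1a, so a match need not be an AP-1 site. The windows are Rptn at chr3:93393449-93393748 on the plus strand, Cpa4 at chr6:30568119-30568418 on the plus strand and Il1a at chr2:129309923-129310222 on the minus strand.
Rptn: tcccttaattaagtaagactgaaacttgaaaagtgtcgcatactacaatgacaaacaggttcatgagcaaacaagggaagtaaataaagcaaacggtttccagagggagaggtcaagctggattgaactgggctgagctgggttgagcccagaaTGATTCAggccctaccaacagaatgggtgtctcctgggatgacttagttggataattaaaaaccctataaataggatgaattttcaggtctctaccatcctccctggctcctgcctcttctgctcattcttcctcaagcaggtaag
Cpa4: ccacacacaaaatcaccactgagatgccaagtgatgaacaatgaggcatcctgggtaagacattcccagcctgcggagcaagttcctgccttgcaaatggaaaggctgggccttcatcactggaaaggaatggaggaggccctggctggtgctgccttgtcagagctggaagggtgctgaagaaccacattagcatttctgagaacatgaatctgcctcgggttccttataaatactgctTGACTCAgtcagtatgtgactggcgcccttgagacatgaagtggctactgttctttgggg
Il1a: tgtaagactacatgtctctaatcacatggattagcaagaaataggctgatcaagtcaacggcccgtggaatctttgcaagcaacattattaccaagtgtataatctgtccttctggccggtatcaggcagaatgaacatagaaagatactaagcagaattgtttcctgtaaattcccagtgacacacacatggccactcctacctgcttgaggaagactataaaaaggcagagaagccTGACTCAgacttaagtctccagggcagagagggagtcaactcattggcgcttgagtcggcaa

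Capitals mark GAAANNGAA, the core of the interferon-stimulated response element, read on either strand, in 4 genes that rose. These are Ifitm3 at chr7:141010695-141010994, Ifih1 at chr2:62646206-62646505, Cxcl9 at chr5:92328030-92328329 and Cxcl10 at chr5:92348840-92349139, all on the minus strand. Ifitm3 and Ifih1 hold the core at 2 places each.
Ifitm3: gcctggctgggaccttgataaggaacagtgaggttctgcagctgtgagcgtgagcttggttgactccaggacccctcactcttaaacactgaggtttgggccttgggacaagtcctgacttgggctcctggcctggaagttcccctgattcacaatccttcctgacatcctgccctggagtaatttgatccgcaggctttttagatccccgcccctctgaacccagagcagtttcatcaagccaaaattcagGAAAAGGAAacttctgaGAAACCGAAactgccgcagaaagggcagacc
Ifih1: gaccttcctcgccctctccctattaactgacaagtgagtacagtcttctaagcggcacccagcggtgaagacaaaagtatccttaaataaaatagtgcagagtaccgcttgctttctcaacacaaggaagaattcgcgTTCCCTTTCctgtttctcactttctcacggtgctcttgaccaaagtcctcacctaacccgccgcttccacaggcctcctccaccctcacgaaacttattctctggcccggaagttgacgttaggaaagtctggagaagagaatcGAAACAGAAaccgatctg
Cxcl9: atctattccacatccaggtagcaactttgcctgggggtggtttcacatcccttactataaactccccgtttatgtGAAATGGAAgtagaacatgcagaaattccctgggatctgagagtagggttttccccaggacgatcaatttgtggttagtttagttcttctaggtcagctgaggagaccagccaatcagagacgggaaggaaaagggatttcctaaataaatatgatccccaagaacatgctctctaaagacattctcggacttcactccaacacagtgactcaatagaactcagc
Cxcl10: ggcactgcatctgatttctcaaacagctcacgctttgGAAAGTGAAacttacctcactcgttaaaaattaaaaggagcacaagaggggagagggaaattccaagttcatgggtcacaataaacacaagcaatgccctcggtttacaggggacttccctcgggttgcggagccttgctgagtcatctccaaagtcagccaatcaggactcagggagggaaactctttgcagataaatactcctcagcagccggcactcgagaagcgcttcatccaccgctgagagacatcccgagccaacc

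Both motifs were searched on both strands of 32851 promoters of 27025 genes, and TGANTCA reads the same on either strand. Further matches in the windows were left in lower case, TGANTCA in Ifitm3, Cxcl9 and Cxcl10 and GGGANTTTC in Cxcl9, and no 2 matches share a base. TGANTCA was in 7.81% of all promoters, in 13.7% of the 571 promoters of genes at least 2-fold lower after CFA and in 9.28% of the 97 promoters of genes at least 2-fold higher. It was in 28.1% of the 32 promoters of the late cornified envelope and filaggrin family. That was not particular to a list that fell, since 23.5% of the 34 promoters of type I interferon-stimulated genes held it. Among the 24 promoters of chemokines the share was 20.8%. GAAANNGAA was in 8.56% of all promoters, in 5.78% of those of genes at least 2-fold lower and in 19.6% of those of genes at least 2-fold higher. It was in 47.1% of the 34 promoters of type I interferon-stimulated genes. The NF-kB letters GGGANTTTC were in 1.11% of all promoters and in 4.12% of those of genes at least 2-fold higher, and the STAT letters TTCCNGGAA were in 1.15% and 4.12%. A promoter was found for 482 of the 600 genes at least 2-fold lower and for 79 of the 108 at least 2-fold higher. A match describes these letters in this window and is no evidence that a factor binds there.

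CFA changed mutant epidermis broadly, and its large changes were mostly falls. Of 23410 probe sets, 3028 were higher (12.9%) and 3068 lower (13.1%) by the limma test at the 0.05 threshold with 3 arrays in each group, while the median over all of them was 0.04. At least 2-fold, 141 were higher (0.602%) and 663 lower (2.83%). Counted by gene, 108 rose and 600 fell at least 2-fold, so that 84.7% of these changes were falls. The skew grew with size, with 14 genes higher and 178 lower at least 4-fold, and 4 higher and 53 lower at least 8-fold. All 3 CFA arrays lay above all 3 naive arrays for 24% of probe sets and below them for 19.5%. The share of falls among 2-fold changes in probe sets lay between 74% and 87% under every alternative setting run.

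Changes are described here by the naive signal of each gene's probe set, which is not an amount of transcript. The median naive signal was 8.44 for genes at least 2-fold lower, 6.47 for genes at least 2-fold higher and 5.77 for all genes. Of 79 genes with a naive signal over 12, 26.6% fell at least 2-fold, as did 20.9% of 425 genes between 10 and 12, 8.9% of 2899 between 8 and 10 and 3.24% of 5859 between 6 and 8. Of the 600 genes that fell at least 2-fold, 190 had a naive signal between 6 and 8 and 41 between 4 and 6. No gene with a naive signal over 10 rose at least 2-fold. A probe set near background cannot fall far, so low signals limit the falls that could be seen. After CFA, 51 of the 600 genes were below background on all 3 arrays, and 8 of the 108 risers had been below it on all naive arrays.

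**Figure D1:**
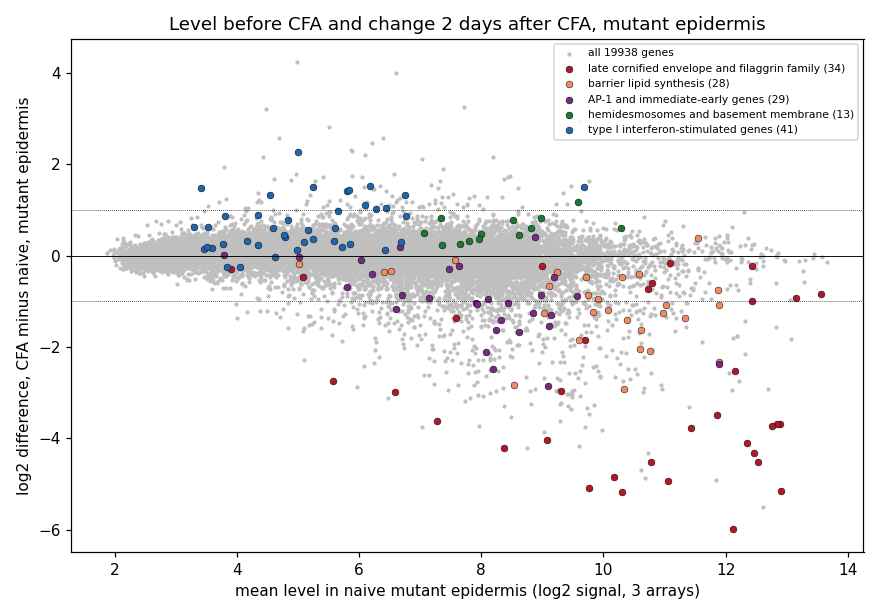
Log2 difference, CFA minus naive (vertical axis), against the mean log2 signal of the 3 naive mutant arrays (horizontal axis), with 1 point per gene, 19938 in all, and 5 gene lists in colour. Late cornified envelope genes sit at the lower right, down to -5.97, and no point over a naive signal of 10 lies above the upper dotted line, which marks a 2-fold rise.

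Array 3 of the CFA group carried the largest rises. It was the highest CFA array in 74 of the 108 genes at least 2-fold higher, against 21 for array 1 and 13 for array 2. The median difference of those genes from their naive mean was 1.22 on CFA array 1, 1.12 on array 2 and 1.59 on array 3. For the 600 genes that fell the arrays were closer, at -1.39, -1.48 and -1.60, and array 3 was lowest in 337 of them. The median SD within groups was 0.295 for the risers, 0.186 for the genes that fell and 0.116 for all genes. Without CFA array 3, 2450 probe sets were higher and 2744 lower. What sets that array apart was not tested.

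The deepest falls were in genes of the cornified envelope. Of 34 measured members of the late cornified envelope and filaggrin family, 0 rose, 30 fell and 4 did not pass the test, and 24 of the falls were at least 2-fold. Their median difference was -3.55, against 0.04 over all genes. Lce1i, the largest fall of the whole comparison, read 12.11, 12.07 and 12.17 on the naive and 6.64, 5.95 and 5.84 on the CFA arrays, a 62.9-fold fall (-5.97 ± 0.19, adjusted p = 3.05e-07). The groups were far apart, and the CFA arrays spread over more of the scale than the naive ones. Lce1f went from 10.3, 10.26 and 10.36 to 5.11, 5.1 and 5.19 (-5.18 ± 0.07, adjusted p = 8.15e-09). Lce1h went from 12.9, 12.87 and 12.96 to 7.92, 8.0 and 7.37 (-5.15 ± 0.15, adjusted p = 2.59e-07). The replicates of Lce1f were close together in both groups. Lce1d, Lce3c, Lce1a1 and Lce6a, which like the former encode small cysteine-rich proteins cross-linked into the envelope, fell by 4.94, 4.84, 4.52 and 4.52 on the log2 scale. The Lce1 genes are near copies of each other and can share probes, so their values may not be independent.

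Crct1, a small protein gene beside the Lce3 cluster, went from 12.66, 12.52 and 12.63 to 7.28, 7.14 and 6.89 (-5.5 ± 0.11, adjusted p = 3.88e-08). Rptn, repetin, a calcium-binding S100-fused protein of the envelope whose promoter is shown above, went from 9.88, 10.19 and 9.23 to 5.02, 4.64 and 4.38 (-5.08 ± 0.24, adjusted p = 3.57e-06). Repetin thus passed from well above background to about its level, with a wider spread on the naive arrays than the Lce1 genes described above. Lor, loricrin, the bulk protein of the envelope, read 12.12, 12.22 and 12.12 and then 9.76, 9.61 and 9.54 (-2.52 ± 0.08, adjusted p = 4.03e-07). Other members gave smaller values, and Hrnr, hornerin, fell by 0.84 and Ppl, periplakin, by 0.6. Not called were Lce3a at -0.48, Krtdap at -0.24, Evpl, envoplakin, at -0.22 and Calml3 at -0.17. On chromosome 3, 15 neighbouring measured genes from Lce6a to Lce1l, Kprp among them, each fell at least 2-fold, the longest such run among measured genes, and a further run of 4 lay from Lce3c to Crct1.

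Small proline-rich proteins, the further envelope components that keratinocytes make in quantity in wounds and inflamed skin, were lower too, while the stress keratins Krt16 and Krt6a were higher. Of 19 measured genes of stress keratins, small proline-rich proteins and stefins, 2 rose, 11 fell and 6 did not pass the test (median -0.75). Sprr2d read 10.04, 9.76 and 9.71 and then 6.31, 6.11 and 7.3 (-3.27 ± 0.27, adjusted p = 7.84e-05). Sprr1a read 12.16, 11.83 and 12.17 and then 9.55, 9.69 and 9.2 (-2.57 ± 0.14, adjusted p = 7.54e-06). All CFA arrays were below all naive arrays for both genes. Sprr2h fell by at least 5.28-fold, since its CFA signals were below background, and Cnfn, cornifelin, fell by 2.91. Krt16, a keratin of activated keratinocytes, read 8.35, 8.34 and 7.86 and then 9.47, 9.87 and 11.66 (2.15 ± 0.48, adjusted p = 0.0124), highest on CFA array 3. Without that array the Krt16 log2 difference was 1.49. Its partner Krt6a rose by 1.03 (adjusted p = 0.0205), and Krt6b read 9.45, 8.71 and 7.27 and then 9.66, 9.67 and 11.32, a difference of 1.74 that was not called (adjusted p = 0.0588). Krt17, also of this list, gave -0.14.

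The structural keratins moved little. Of 11 measured genes, 2 rose, 2 fell and 7 did not pass the test (median -0.06). Krt14, the basal keratin whose promoter drives Cre in these mice, read 12.35, 12.38 and 12.38 and then 12.68, 12.82 and 12.77 (0.39 ± 0.07, adjusted p = 0.00575), with no overlap between groups. Krt5, its partner, rose by 0.25, a call lost without any naive array or CFA array 2 or 3, and the suprabasal Krt1 and Krt10 gave -0.11 and -0.06 and were not called. Krt78 and Krt80, keratins of differentiating cells, fell by 2.19 and 1.71.

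**Figure D2:**
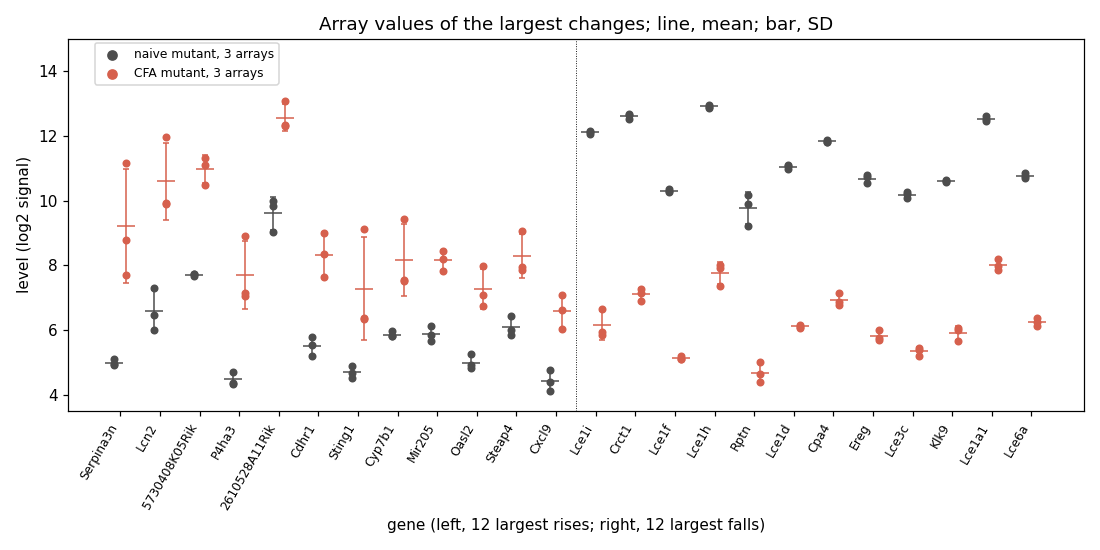
Log2 signal (vertical axis) of the 12 genes with the largest rises and the 12 with the largest falls, with 1 point per array, naive mutant in grey and CFA mutant in red, a line at the mean and a bar for the SD of 3 arrays. The groups do not overlap, which the choice required; among the falls the naive arrays spread most in Rptn, and 1 CFA array stands above the other CFA arrays in Serpina3n, Lcn2, P4ha3, Sting1 and Cyp7b1.

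Proteases and cross-linkers of the upper epidermis fell with the envelope genes. Of 22 measured kallikreins, transglutaminases, deiminases and their relatives, 0 rose, 17 fell and 5 did not pass the test (median -1.04). Klk9 read 10.65, 10.59 and 10.59 and then 6.0, 6.06 and 5.66 (-4.7 ± 0.11, adjusted p = 7.73e-08). Klk7, a chymotrypsin-like protease that cleaves corneodesmosomes, read 11.47, 11.24 and 11.49 and then 8.53, 7.85 and 7.87 (-3.32 ± 0.18, adjusted p = 5.87e-06). The groups were separated by several times their spread in both. Klk5, the trypsin-like protease upstream of Klk7, fell by 2.66, and Prss8, a membrane-anchored serine protease, by 2.68. Ctsl, cathepsin L, fell by 2.12. Klk10, Klk9, Klk8, Klk7, Klk6 and Klk5, which neighbour each other on chromosome 7, each fell at least 2-fold. Tgm1 and Tgm5, transglutaminases of the envelope, fell by 1.11 and 1.64, while Tgm3 gave 0.03 and was not called.

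Genes for the lipids of the barrier were lower across both branches measured. For ceramides and very long fatty acids, of 28 genes 1 rose, 23 fell and 4 did not pass the test (median -1.08). Smpd1, acid sphingomyelinase, which releases ceramide, read 10.46, 10.14 and 10.41 and then 7.55, 7.39 and 7.31 (-2.92 ± 0.11, adjusted p = 7.21e-07). Elovl3, a fatty acid elongase, read 8.84, 8.03 and 8.72 and then 5.3, 6.4 and 5.41 (-2.82 ± 0.3, adjusted p = 0.000331). Alox12b, Aloxe3 and Sdr9c7, which oxidise the linoleate of acylceramides in successive steps, fell by 2.33, 2.08 and 2.04. All 5 genes had groups that did not overlap. The exception in direction was Fabp5, the epidermal fatty acid-binding protein, which rose by 0.37. For cholesterol, of 20 genes 0 rose, 19 fell and 1 did not pass the test (median -1.14), and Srebf2, the master regulator, was the gene that did not pass at -0.23. Insig1, a sterol-responsive anchor of that regulator, read 9.37, 9.17 and 9.35 and then 8.08, 7.47 and 7.43 (-1.64 ± 0.16, adjusted p = 0.000229). Hsd17b7, Stard4, Fdft1 and Msmo1, enzymes and a sterol carrier of the pathway, fell by 1.55, 1.45, 1.43 and 1.38. Both probe sets of Fdft1 were lower.

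Retinoid enzymes, which make and break down the retinoic acid that governs keratinocyte differentiation, were split between falls and no call. Of 29 measured genes, 1 rose, 11 fell and 17 did not pass the test (median -0.2). Dhrs9, a retinol dehydrogenase, read 8.63, 8.11 and 8.39 and then 5.02, 5.13 and 5.09 (-3.3 ± 0.12, adjusted p = 8.57e-07). Rdh1 and Rdh9, of the same activity, both fell by 2.29, and Stra6, the retinol transporter, fell by 1.43. Rdh11 fell by 1.18.

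Interleukin-1 family genes that keratinocytes hold at rest were among the steepest falls. Of 22 measured genes, 2 rose, 11 fell and 9 did not pass the test (median -0.32). Il1a, the interleukin-1 alpha that injured keratinocytes release and whose promoter is shown above, read 8.13, 7.68 and 8.07 and then 4.16, 4.38 and 4.18, a fall of at least 9.26-fold to below background (-3.72 ± 0.13, adjusted p = 5.09e-07). Il18, which is stored as a precursor and cleaved by caspase-1, read 9.65, 9.73 and 9.71 and then 6.1, 5.7 and 6.05 (-3.74 ± 0.11, adjusted p = 2.59e-07). Neither gene had overlapping groups, and the replicates within a group were close. Il1f8, which encodes the IL-36 beta cytokine, read 9.32, 9.25 and 9.32 and then 6.01, 5.28 and 5.74 (-3.62 ± 0.16, adjusted p = 2.5e-06). Il1f6, IL-36 alpha, fell by 3.25, and Gsdma, a pore-forming gasdermin of skin, by 2.74. The inhibitors of the family fell as well, with Il1f5, the IL-36 receptor antagonist, at -2.49, Il1rn, the IL-1 receptor antagonist, at -1.45 and the decoy receptor Il1r2 at -1.96. Il1b, the cytokine of myeloid cells, read 4.4, 4.01 and 4.01 and then 4.23, 6.14 and 5.15, overlapping between groups and not called (adjusted p = 0.0882). Il18r1, a receptor chain for IL-18, rose by 0.97, and Pycard, the inflammasome adaptor, by 0.33. Il1f6, Il1f5, Il1f10 and Il1rn neighbour each other on chromosome 2 and each fell at least 2-fold.

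Several ligands of the EGF receptor fell while the receptor rose. Of 11 measured genes, 1 rose, 6 fell and 4 did not pass the test (median -0.55). Ereg, epiregulin, read 10.53, 10.72 and 10.78 and then 5.76, 5.7 and 5.99, a 29-fold fall (-4.86 ± 0.1, adjusted p = 5.1e-08). Btc, betacellulin, read 7.84, 7.57 and 8.36 and then 5.44, 5.05 and 4.98 (-2.77 ± 0.2, adjusted p = 3.72e-05). All CFA arrays were below all naive arrays for both ligands. Epgn, epigen, fell by 1.57, Errfi1, a feedback inhibitor of the receptor, by 1.28 and Hbegf by 0.88. The fall of Hbegf lost its call without naive array 2 or 3 and without CFA array 1 or 3. Egfr rose by 0.46 (9.35, 9.33 and 9.27 to 9.66, 9.82 and 9.85, adjusted p = 0.00387).

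Immediate-early genes, which cells switch on within minutes of a stimulus, were lower 2 days after CFA. Of 29 measured genes, 1 rose, 21 fell and 7 did not pass the test (median -0.94). Fos read 8.65, 9.38 and 9.25 and then 6.58, 6.53 and 5.6 (-2.85 ± 0.28, adjusted p = 0.000187). Fosb read 7.62, 8.63 and 8.33 and then 5.32, 5.92 and 5.86 (-2.49 ± 0.25, adjusted p = 0.00024). Dusp1, a phosphatase that ends MAP kinase signals, read 11.48, 12.11 and 12.06 and then 9.36, 9.9 and 9.26 (-2.38 ± 0.21, adjusted p = 0.000102). In all 3 genes the naive arrays spread over more than those of the Lce1 genes above, yet the groups did not overlap. Atf3 and Btg2, a stress transcription factor and an antiproliferative gene, fell by 2.11 and 1.68. Myc, which drives growth, rose by 0.42. Of the 29 promoters found for 23 of these genes, 0 held the TGANTCA letters.

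Clock genes were lower in part. Of 17 measured genes, 0 rose, 10 fell and 7 did not pass the test (median -0.67). Per1 and Cry2, repressors of the clock, fell by 1.13 and 1.01, Nr1d1, the Rev-erb alpha receptor, by 1.04, and Ciart and Bhlhe41, further repressors, by 1.12 and 1.01. Arntl, which encodes BMAL1 and peaks opposite to the repressors, fell by 0.67, and Dbp, an output gene, gave -0.02. The sources used here do not give the hour at which tissue was taken.

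Skint genes encode membrane proteins of keratinocytes and thymic epithelium, known for Skint1, which the dendritic epidermal T cells need in order to develop. Of 7 measured members, 0 rose, 5 fell and 2 did not pass the test (median -1.53). Skint4 read 7.52, 7.04 and 7.66 and then 5.74, 3.88 and 5.67 (-2.31 ± 0.44, adjusted p = 0.00632). Skint9 read 5.68, 4.82 and 4.8 and then 3.15, 2.67 and 2.64, a fall of at least 1.27-fold to below background (-2.28 ± 0.24, adjusted p = 0.000279). Skint3 read 8.07, 7.59 and 7.99 and then 6.42, 2.79 and 5.96 (-2.83 ± 0.79, adjusted p = 0.0312), far lowest on CFA array 2. Without CFA array 2 the Skint3 log2 difference was -1.7, against -3.51 without CFA array 1, and its call was lost when any naive array was left out. The Skint4 log2 difference was -1.7 without CFA array 2. Skint10 and Skint11 fell by at least 1.33-fold and at least 1.34-fold. The same list had a median of -0.38 in control epidermis, and the difference between genotypes was not called for any of the 7, with adjusted p-values from 0.131 for Skint9 upward.

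Against these falls, the largest named rises were those of Serpina3n and Lcn2, from the acute-phase and antimicrobial genes, a list that moved both ways. Of 28 measured genes, 4 rose, 8 fell and 16 did not pass the test (median 0.12). Over all probe sets 12.9% were higher and 13.1% lower, so the rises of this list were about as frequent as elsewhere. Its falls were more frequent than elsewhere, and 5 of the 8 were at least 2-fold. Serpina3n, a protease inhibitor of the acute phase, read 5.09, 4.95 and 4.92 and then 8.79, 7.71 and 11.17, an 18.8-fold rise (4.23 ± 0.71, adjusted p = 0.00321). Lcn2, lipocalin 2, which withholds iron from bacteria, read 7.3, 6.47 and 6.01 and then 9.93, 9.9 and 11.97, a 16.1-fold rise (4.0 ± 0.54, adjusted p = 0.00112). CFA array 3 was the highest in both genes, and the lowest CFA array was still above the highest naive array. Without CFA array 3 the Serpina3n log2 difference was 3.26, against 4.99 without CFA array 2, and the Lcn2 log2 difference was 3.32. The alarmins S100a8 and S100a9 had similar differences of 2.58 and 2.46 but were not called (adjusted p = 0.0888 and 0.0662). S100a8 read 8.21, 5.99 and 4.94 on the naive and 7.87, 7.94 and 11.07 on the CFA arrays, so that naive array 1 exceeded CFA arrays 1 and 2. Defensins Defb14 and Defb6 moved the other way, with Defb14 at 7.24, 7.25 and 7.21 and then 4.11, 4.91 and 4.26 (-2.81 ± 0.18, adjusted p = 2.04e-05), and Defb6 lower by 2.23. Wfdc21, a small secreted protein of the whey acidic protein family, fell by 2.6.

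Oasl2, Cxcl9 and Sting1, also among the 12 largest rises, are described with the chemokine, interferon and sensing lists below. P4ha3, a subunit of the enzyme that hydroxylates collagen prolines, read 4.71, 4.37 and 4.34 and then 7.04, 7.14 and 8.91 (3.22 ± 0.43, adjusted p = 0.00104). 2610528A11Rik, which encodes a ligand of GPR15, a homing receptor of T cells, read 9.83, 9.98 and 9.03 and then 12.3, 12.34 and 13.06 (2.96 ± 0.27, adjusted p = 0.000146). 5730408K05Rik, a transcript named only by its clone, read 7.67, 7.73 and 7.74 and then 11.11, 10.49 and 11.31 (3.26 ± 0.18, adjusted p = 7.91e-06). In each the CFA arrays all exceeded the naive arrays. Cdhr1, a cadherin-related gene, rose by 2.82, Cyp7b1, an oxysterol hydroxylase, by 2.31 and Steap4, a metalloreductase, by 2.2. Without CFA array 3 the P4ha3 log2 difference was 2.61 and the Cyp7b1 log2 difference was 1.67.

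Mir205, a microRNA gene active in stratified epithelia, read 6.13, 5.86 and 5.66 and then 7.83, 8.19 and 8.45 (2.28 ± 0.17, adjusted p = 4.45e-05), with no overlap and a like rise on each CFA array. The probe set is assigned to the gene, and the mature strands were not measured separately. They are shown because the microRNA acts through them, with the seed (bases 2 to 8) in capitals, from RefSeq for GRCm38.p6 at chr1:193507503-193507524 and chr1:193507467-193507488 on the minus strand.
mmu-miR-205-5p: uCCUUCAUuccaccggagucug
mmu-miR-205-3p: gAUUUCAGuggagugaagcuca

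Chemokines and other cytokine genes were called about as often as all probe sets, of which 12.9% were higher and 13.1% lower. Of 32 measured chemokines, 6 rose, 3 fell and 23 did not pass the test (median 0.1). Cxcl9, which attracts T cells through CXCR3 and is induced by interferon gamma, read 4.12, 4.76 and 4.41 and then 6.04, 7.07 and 6.63 (2.15 ± 0.25, adjusted p = 0.000495). Cxcl10, of the same receptor, read 4.65, 4.35 and 4.29 and then 5.14, 5.03 and 5.15 (0.68 ± 0.11, adjusted p = 0.0023), a small rise close to background. Both groups kept apart in both genes, whose promoters are shown above. Cxcl1 and Ccl3, which attract neutrophils and macrophages, rose by 0.92 and 0.81, the rise of Ccl3 losing its call without naive array 1, 2 or 3 and without CFA array 2 or 3. Ccl6 fell, from 7.59, 7.67 and 7.73 to 5.16, 5.48 and 5.29 (-2.35 ± 0.1, adjusted p = 1.48e-06). Of 26 other cytokines, receptors and Stat3 signalling genes, 6 rose, 1 fell and 19 did not pass the test. Osmr, the oncostatin M receptor, rose by 1.55, Il6st, the gp130 chain it pairs with, by 1.11, and Stat3, the factor that acts downstream of both, by 0.7. Il22ra1, the IL-22 receptor, fell by 1.16. Il6, Tnf and Il17a gave 0.09, 0.0 and 0.21 and were not called. Of 17 NF-kB feedback genes and targets, 4 rose, 3 fell and 10 did not pass the test, with Icam1, a leukocyte adhesion molecule, at 1.47, Bcl3 at 0.89 (its call lost without naive array 2), Irak3 at -0.95 and Nfkbia at -0.87.

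Interferon-stimulated genes encode antiviral proteins that rise after interferon alpha, beta or lambda. Of 41 measured members, 18 rose, 0 fell and 23 did not pass the test, and 11 of the rises were at least 2-fold (median 0.6). The study discusses interferon genes in these same arrays, so the direction of this list is no independent evidence. Oasl2, an oligoadenylate synthetase-like protein, read 5.25, 4.91 and 4.81 and then 7.96, 7.09 and 6.75 (2.28 ± 0.27, adjusted p = 0.000597). Ifitm3, a membrane protein that blocks viral entry, read 9.61, 9.68 and 9.73 and then 11.02, 10.89 and 11.6 (1.49 ± 0.17, adjusted p = 0.000384). Parp14, Dtx3l and Parp9, which act in ADP-ribosylation and ubiquitination, rose by 1.51, 1.51 and 1.44. Ifih1, the sensor of long double-stranded RNA, rose by 1.41. All of these had CFA arrays above naive arrays, as did 23 of the 41 genes. Over all probe sets that held for 24%, and 12.9% were called higher. Some of the best known members did not pass, with Ifit1 at 3.42, 3.59 and 3.22 and then 6.15, 4.69 and 3.84 (adjusted p = 0.0501), Rsad2 at 0.13, Irf7 at 0.19, Ifit3 at 0.16 and Mx1 at -0.25. Of the 41 genes, 8 were below background on all 6 arrays, Ifit2, Ifit3, Mx1 and Mx2 among them. Averaged over the list, signals were 5.12, 5.06 and 5.14 on the naive arrays and 6.08, 5.72 and 5.56 on the CFA arrays. CFA array 3, the highest for most large rises, was the lowest of the CFA arrays here.

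**Figure D3:**
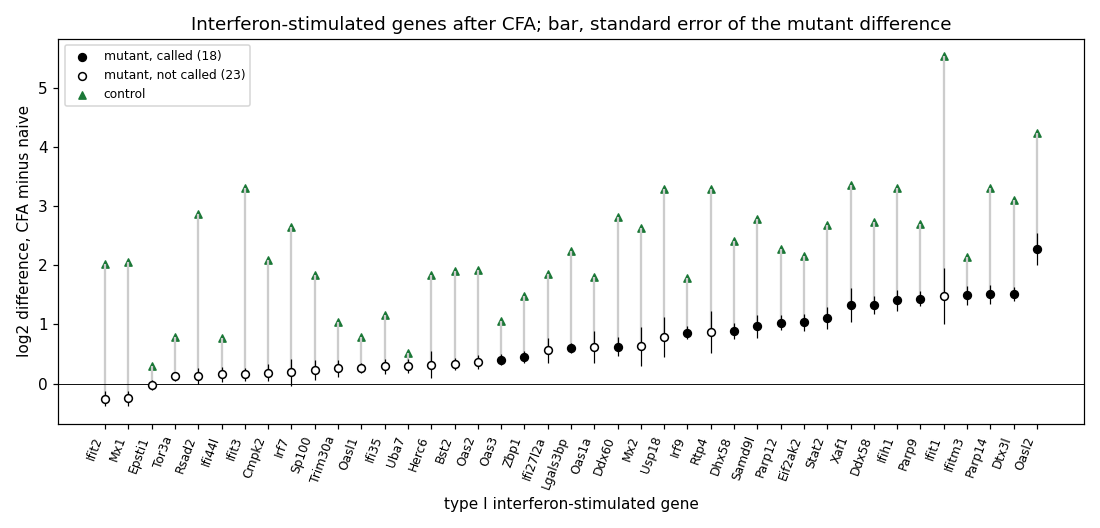
Log2 difference, CFA minus naive (vertical axis), of 41 type I interferon-stimulated genes (horizontal axis, ordered by the mutant difference), with circles for mutant epidermis, filled where called, bars for the standard error and triangles for control epidermis. Mutant differences run from -0.26 for Ifit2 to 2.28 for Oasl2, and each triangle lies above its circle.

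Interferon-induced GTPases and MHC class I genes rose as well, while MHC class II genes were mostly not called. Of 10 measured interferon-induced GTPases, which attack vacuoles that hold microbes, 6 rose, 0 fell and 4 did not pass the test (median 0.55), although 2 of the 10 had a group wholly above background. Gbp7 and Irgm1 rose by 1.79 and 1.66, and Gbp2b by at least 1.19-fold. Of 16 genes of MHC class I and antigen processing, 12 rose, 1 fell and 3 did not pass the test (median 0.53). B2m, the light chain of class I molecules, read 9.68, 9.41 and 9.31 and then 10.82, 10.88 and 11.24 (1.52 ± 0.14, adjusted p = 0.000121). Psmb8, Psmb9 and Tap1, of the immunoproteasome and the peptide transporter, rose by 1.3, 0.97 and 1.1, and Erap1, which trims peptides, by 0.84. CFA and naive arrays did not overlap in any of these 5 genes. Of 10 MHC class II genes, 3 rose, 1 fell and 6 did not pass the test, and the largest rise was that of Lgmn, a lysosomal protease, at 1.63. H2-Oa and Ciita rose by 0.39 and 0.27, and H2-DMa fell by 0.44. Of 21 nucleic acid sensors and interferon receptors, 7 rose, 0 fell and 14 did not pass the test (median 0.23). Sting1, the adaptor for cytosolic DNA, read 4.51, 4.89 and 4.67 and then 6.35, 6.36 and 9.11 (2.58 ± 0.64, adjusted p = 0.0193), CFA array 3 standing far above the other 2. Without CFA array 3 the Sting1 log2 difference was 1.66, and without naive array 1 or 3 the call was lost. Ifngr1 and Ifnar2, receptor chains for interferon gamma and type I interferon, rose by 1.35 and 0.8, the latter losing its call without naive array 1 or 3.

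Genes of hemidesmosomes and basement membrane rose, modestly but nearly without exception. Of 13 measured genes, 12 rose, 0 fell and 1 did not pass the test (median 0.48). Leaving out single arrays left 9 to 11 of them called higher. Itga6, the alpha 6 integrin that holds basal cells to laminin, read 9.54, 9.68 and 9.53 and then 10.69, 10.89 and 10.68 (1.17 ± 0.09, adjusted p = 4.95e-05). Itgb4, its beta 4 partner, read 8.96, 9.08 and 8.92 and then 9.77, 9.83 and 9.8 (0.81 ± 0.08, adjusted p = 0.000146). All 3 CFA arrays were above all 3 naive arrays in both. Dst and Plec, plakins that tie the integrin to keratin filaments, rose by 0.82 and 0.61, and Lama3, a chain of the laminin of epidermal basement membrane, by 0.79. Lama5 did not pass at 0.24. Desmosomal genes were split, with Dsg3 and Dsc2 higher by 1.13 and 1.08, Dsc3 higher by 0.3, and Dsg1b and Pkp3 lower by 0.31 and 0.35, among 12 measured genes of which 7 did not pass. The call of Dsc3 was lost without naive array 2, that of Pkp3 without naive array 2 or 3, and that of Dsg1b without any naive array or CFA array 2 or 3. Of 18 transcription factors and Notch genes, 7 rose, 5 fell and 6 did not pass the test. Prdm1, which encodes BLIMP1, a transcriptional repressor active in late differentiation stages, read 8.83, 8.83 and 8.79 and then 5.71, 5.53 and 5.51 (-3.24 ± 0.08, adjusted p = 1.01e-07). Hopx and Klf4, further factors of differentiating cells, fell by 1.5 and 0.8. Notch1 and its ligand Jag1 rose by 0.76 and 0.98, and Trp63, the p63 factor of basal cells, by 0.54.

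Cell cycle genes did not move as a group. Of 42 measured genes, 1 rose, 3 fell and 38 did not pass the test (median -0.04). Ccnd1, cyclin D1, fell by 0.67, and Mki67, the proliferation marker, gave 0.43 and was not called (adjusted p = 0.115). Top2a was higher by 0.45 at its brighter probe set and fell by 1.22 at the other, so its direction is not settled, and the former call was lost without any naive array or CFA array 2 or 3. Of 27 respiratory chain and ATP synthase genes, 4 rose, 4 fell and 19 did not pass the test (median 0.03).

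Metabolic and stress genes fell in parts. Of 27 genes of glycolysis and the hypoxia response, 5 rose, 11 fell and 11 did not pass the test (median -0.14). Egln3, an oxygen-sensing hydroxylase, read 10.71, 10.56 and 10.72 and then 8.7, 8.52 and 8.11 (-2.22 ± 0.14, adjusted p = 1.88e-05), and Bnip3, a mitophagy receptor, fell by 2.21. Both are targets of HIF-1, whose alpha subunit gene Hif1a rose by 0.78. Of 21 metallothioneins and antioxidant enzymes, 2 rose, 8 fell and 11 did not pass the test. Hmox1, heme oxygenase 1, read 9.48, 9.46 and 9.5 and then 6.62, 6.26 and 6.49 (-3.02 ± 0.1, adjusted p = 3.7e-07), while Nqo1, a quinone reductase under the same NRF2 factor, rose by 1.45 and lost its call without naive array 1 or 3. Of 16 genes of the unfolded protein and heat shock responses, 1 rose, 5 fell and 10 did not pass the test. Of 25 prostaglandin and lipoxygenase genes, 1 rose, 7 fell and 17 did not pass the test. Ptgs2, the inducible cyclooxygenase COX-2 that the study discusses, read 6.6, 7.72 and 8.14 and then 5.19, 6.12 and 4.81 (-2.11 ± 0.42, adjusted p = 0.00742), with a wide spread on the naive arrays and no overlap. Alox8 and Alox12e, epidermal lipoxygenases, fell by 2.0 and 1.91, and Ptger3, a receptor for prostaglandin E2, by 0.81.

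Genes through which keratinocytes could act on nerve endings were examined because the study asks about skin sensation. Of 16 measured sensory ion channels, 2 rose, 2 fell and 12 did not pass the test (median 0.02), and 5 were below background on all arrays, Trpa1, Trpv1 and Piezo2 among them. Channels were thus called about as often as all probe sets, of which 12.9% were higher and 13.1% lower. The rises were those of Trpm7 at 0.24 and of Asic2, by at least 1.15-fold from below background. Trpv3, the warm-gated channel of keratinocytes, read 7.66, 7.72 and 7.7 and then 7.48, 7.44 and 7.3 (-0.29 ± 0.08, adjusted p = 0.0271), a change of 1.22-fold that lost its call without CFA array 2 or 3 or any naive array. Piezo1, a mechanically gated channel, fell by 0.41 at its brightest probe set, a call lost without any single array other than CFA array 2, fell by 0.42 at another, and did not pass at the remaining probe set. Of 18 connexins, pannexins and nucleotide signalling genes, 4 rose, 6 fell and 8 did not pass the test (median 0.01). Gjb6 and Gjb2, connexins of the upper epidermis, fell by 1.63 and 1.19, Panx3 by 1.37 and Nt5e, the ectoenzyme that makes adenosine, by 1.12. Panx1, a channel that releases ATP, and P2ry1, a receptor for ADP, rose by 0.61 and 0.64. Of 12 nerve-acting factors, 1 rose, 4 fell and 7 did not pass the test, with Edn1, endothelin 1, lower by 0.97, Calcb, a calcitonin gene-related peptide, lower by 0.73 (its call lost without naive array 3) and Artn, the neurotrophic factor artemin, higher by 0.52.

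**Figure D4:**
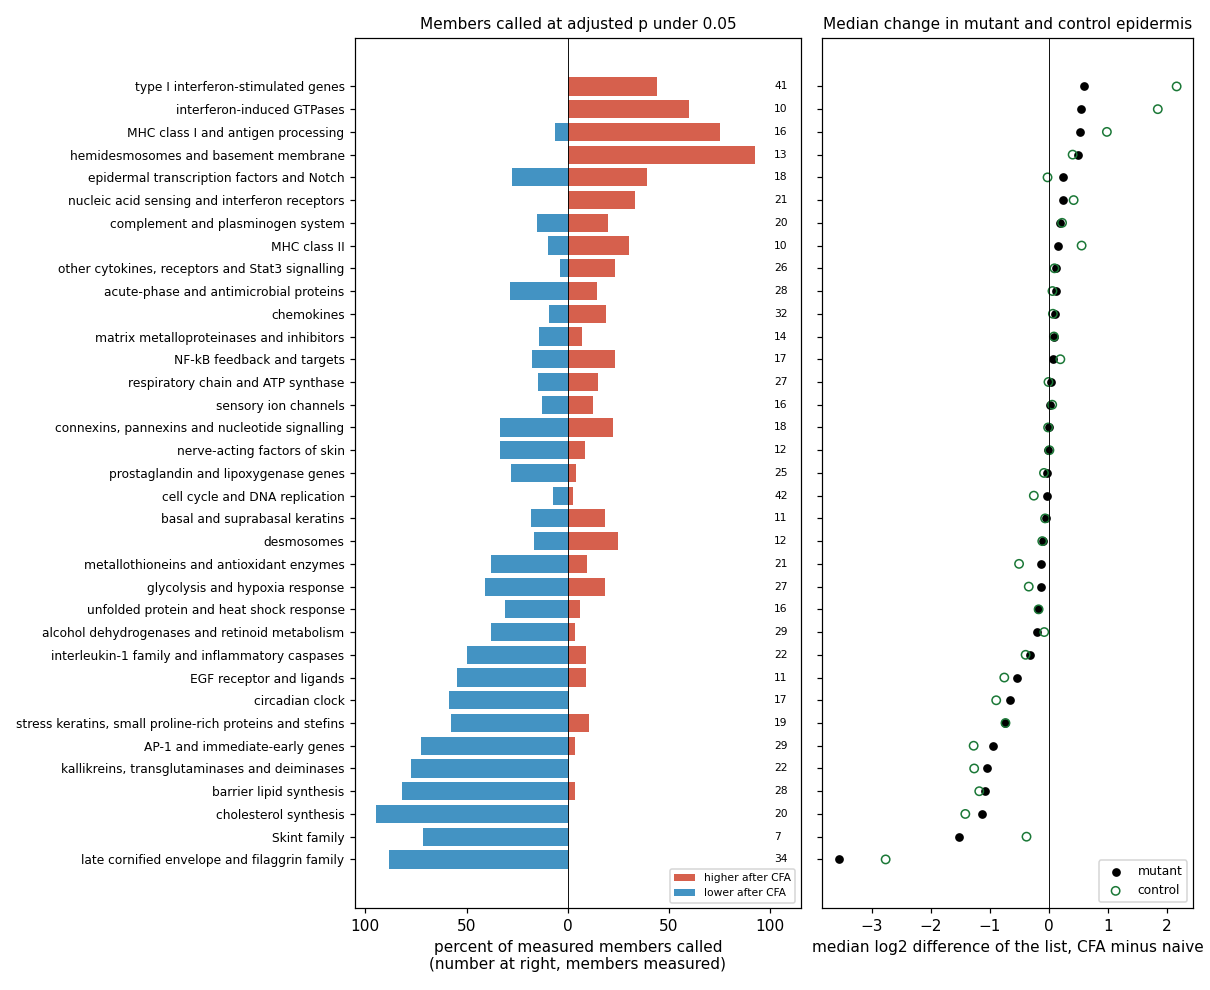
Left, the percentage of measured members of each of 35 gene lists called higher (red, to the right) or lower (blue, to the left) after CFA in mutant epidermis, with the number of members measured; right, the median log2 difference of each list in mutant (filled) and control epidermis (open). The late cornified envelope list lies lowest at -3.55, and the mutant median of the interferon-stimulated genes is 0.60 against 2.16 in control.

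Markers of other cell types that peeled epidermis can hold were read beside these changes. Their counts are to be read against all probe sets, of which 12.9% were higher and 13.1% lower. Of 15 neutrophil genes, 3 rose, 1 fell and 11 did not pass the test, and 7 were below background on all 6 arrays, Ly6g, Ngp, Mmp8, Ltf and Retnlg among them. The rises were those of Mpo at 0.36 and of Trem1 and Ly6g, both below background on all arrays, so that their differences lie within background. The fall, larger than these rises, was that of Cxcr2 at -1.19, above background on all arrays. It read 6.56, 6.67 and 6.31 on the naive and 5.45, 5.41 and 5.1 on the CFA arrays. The summed linear signal of the neutrophil list was 339 to 785 on the naive and 670 to 4013 on the CFA arrays, most of it on the CFA arrays from S100a8 and S100a9, which keratinocytes also make. Of 19 monocyte and macrophage genes, 2 rose, 3 fell and 14 did not pass the test. The falls were those of Arg1 at -2.52, Cd68 at -1.73 and Fcgr3 at -0.89. The summed signal was 926 to 1124 on the naive and 597 to 655 on the CFA arrays. Arg1, at 8.33, 7.8 and 8.66 on the naive arrays, weighs heavily in that sum. Such sums follow the brightest probe sets and do not count cells, and which cells the Arg1 signal came from was not tested. Lyz2, lysozyme of myeloid cells, rose by 1.08 from below background, and the other call, Msr1, was below background on all arrays, while Adgre1, Mrc1 and Ccr2 were below background throughout. The call of Lyz2 was lost without naive array 3 or CFA array 1 or 2, and that of Fcgr3 without any CFA array. Of 23 T and NK cell genes, 6 rose, 0 fell and 17 did not pass the test, 17 were below background on all arrays, and the sum was 539 to 574 on the naive and 746 to 850 on the CFA arrays. Zap70 and Skap1, of the 6 called, were below background on all arrays. Thy1, which dendritic epidermal T cells carry, rose by 1.03. Of 12 Langerhans and dendritic cell genes, 2 rose, 0 fell and 10 did not pass the test, with Cd207, langerin, at -0.16, and of the called genes Ccr6 was below background on all arrays. Of 15 fibroblast genes, 3 rose, 0 fell and 12 did not pass the test, among them Sparc at 1.13, and the sum was 2159 to 2252 on the naive and 2570 to 3091 on the CFA arrays. Of the genes of skeletal muscle, endothelium, B cells, mast cells, melanocytes and Schwann cells, 0 passed in either direction, of 48 measured. Of 10 eccrine gland genes, 1 rose, 2 fell and 7 did not pass the test, with Aqp5, the water channel of sweat glands, at -1.13, Best2 at -0.24 and Foxa1 at 0.43, and the summed signal was 1372 to 1489 on the naive and 974 to 1150 on the CFA arrays. Plin1 at 0.43 was the call among 9 adipocyte genes, and Atoh1 at 0.34 that among 5 Merkel cell genes. The part of these cells in the changes of the other lists was not tested.

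The response of control epidermis, which shares no array with that of the mutant, was set beside it. Control epidermis had 231 genes at least 2-fold higher and 751 at least 2-fold lower after CFA. Of the mutant's 108 risers, 91 were in the control list, 84.3% of the mutant and 39.4% of the control list, and of its 600 genes that fell 532 were, 88.7% and 70.8%. Of the mutant's risers and genes that fell, 0 moved the opposite way in control epidermis. The medians were 1.27 in mutant and 1.68 in control epidermis for the mutant's risers, and -1.46 and -1.61 for the genes that fell. The control rise was the larger in 80 of the 108 and the control fall in 300 of the 600. Because these genes were chosen on the mutant arrays, their mutant values are drawn away from 0, and the counts are a description. Across all 19938 genes, which are not independent, the responses correlated with Pearson's r of 0.885 and Spearman's rho of 0.781.

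The difference in response between genotypes was called for 6 of 23410 probe sets (0.0256%) by limma's interaction test, while 1073 were higher and 861 lower in the mutant at an unadjusted p under 0.05. In the text that follows this difference is signed mutant minus control. Cxcl10 read 4.65, 4.35 and 4.29 naive and 5.14, 5.03 and 5.15 after CFA in mutant epidermis, and 4.36, 4.55 and 4.59 and 9.42, 10.86 and 8.17 in control epidermis (-4.31 ± 0.62, adjusted p = 0.0447). The naive arrays of both genotypes were alike, and the control CFA arrays lay far above the mutant ones. Adh7, an alcohol dehydrogenase that oxidises retinol, read 9.62, 9.86 and 9.6 and 9.58, 9.35 and 8.97 in the mutant, and 9.48, 9.08 and 9.43 and 7.05, 7.16 and 6.86 in control (1.91 ± 0.21, adjusted p = 0.00746). It fell in control and was not called in the mutant at -0.4. Nr4a1, an immediate-early nuclear receptor, read 6.19, 6.71 and 6.91 and 5.42, 5.53 and 5.36 in the mutant, and 8.94, 8.54 and 8.85 and 5.18, 5.12 and 5.59 in control (2.31 ± 0.25, adjusted p = 0.00746). The CFA arrays of both genotypes were alike here, and the naive control arrays lay above the naive mutant arrays. Slc6a20a, an amino acid transporter, gave 1.34 (adjusted p = 0.0447), Clec2d, a lectin-like membrane protein, -2.06 (adjusted p = 0.031) and Gpc3, a cell surface heparan sulfate proteoglycan, -1.21 (adjusted p = 0.0447). All 6 calls were lost when all probe sets were tested and without moderation of the variance.

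**Figure D5:**
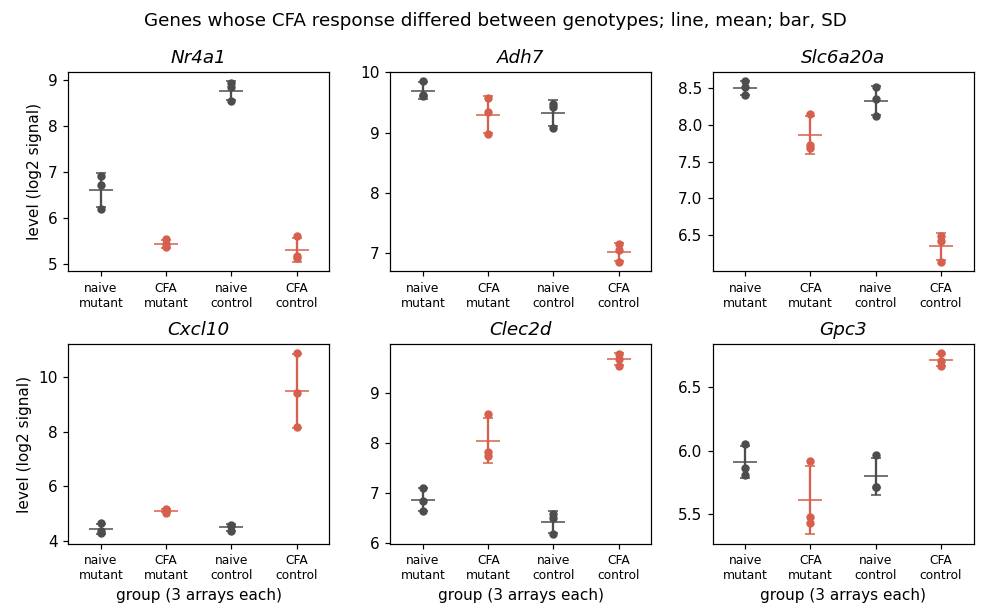
Log2 signal (vertical axis) of the 6 genes whose CFA response differed between genotypes, in the 4 epidermis groups (horizontal axis), with 1 point per array, a line at the mean and a bar for the SD of 3 arrays. Cxcl10 reaches 8.17 to 10.86 on the CFA control arrays and 5.03 to 5.15 on the CFA mutant arrays, and Adh7 lies at 6.86 to 7.16 on the CFA control arrays and at 8.97 or above in the other groups.

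Among the lists, the medians of the interferon-stimulated genes lay furthest apart between genotypes. Their median difference was 0.60 in mutant and 2.16 in control epidermis, the mutant's was the smaller in 41 of 41 genes, and 39 of the 41 had an unadjusted p under 0.05 for the difference, though 0 passed after adjustment over all probe sets. Ifit1 read 3.23, 3.28 and 3.41 naive and 8.82, 10.03 and 7.67 after CFA in control epidermis, against the mutant values above (-4.05 ± 0.76, adjusted p = 0.13). Oasl2 rose by 4.24 in control and 2.28 in mutant (adjusted p of the difference = 0.402). Interferon-induced GTPases had medians of 0.55 in mutant and 1.84 in control, and MHC class I genes 0.53 and 0.98. The late cornified envelope list stood at -3.55 in mutant and -2.77 in control, the Skint list at -1.53 and -0.38, and hemidesmosomes at 0.48 and 0.4. No member of the GTPase, MHC class I, envelope, Skint and hemidesmosome lists passed the test of the difference.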

How the data were processed

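Epidermal RNA of naive and CFA-treated mice was read on Affymetrix Mouse Gene ST arrays, 3 per group. The authors deposited log2 signals per probe set, which the submitters' processing notes attribute to RMA in Partek, and no further normalization was applied here. Genes came from the platform annotation, and 21789 probe sets named exactly 1 gene, 1621 several and 12146 none; no several-gene probe set was named. Samples were grouped by their labels, and 0 columns belonged to no sample. Probe sets with a gene were tested with limma 3.58.1 in R 4.3.3, CFA against naive with the 6 mutant arrays alone, and the difference between genotypes as an interaction over the 12 epidermis arrays, with Benjamini-Hochberg adjustment. An exact permutation test of 3 arrays against 3 cannot give a p below 0.1. The number of arrays limits the precision. Where the dimmer group was below background on all arrays, the fold is a bound, the brighter mean over the dimmer group's background or signal, whichever is higher. Promoters and figures used Python 3.11.15 with pandas 2.3.3, numpy 2.4.6 and matplotlib 3.10.9. The code was tested on simulated data.

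Members and lists were chosen with earlier results of these data known. Of 973 list entries in 35 gene lists and 15 marker lists, 898 were measured, loricrin and the IL-36 receptor antagonist through older symbols, and the others are not analysed here. Named were the 12 largest rises and falls among called genes whose groups did not overlap and whose brighter group was above background, up to 5 members per list by size of a called difference, or by smallest p where fewer than 2 were called, up to 10 genes per direction of the difference between genotypes, and Trpa1, Trpv3, Krt14 and Ptgs2; a further gene of the rule is not reported here. Loricrin, hornerin, Ifit1, Ifih1, Il1b, the IL-1 inhibitors, Krt6a, Krt6b, S100a8, S100a9, Myc, Egfr, Hif1a and every other gene outside this rule were chosen after their values were seen. Alternatives were further quantile normalization, median centring, other probe set filters, other moderation, array weights, a replicate block, all 4 epidermis groups in a joint fit, stricter thresholds, and omission of each array in turn. The labels number the replicates without saying that equal numbers are pairs, and the main tests used no pairing.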

Additional observations from a re-analysis of the deposited data

Results flagged for a closer look

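The CFA response differed between genotypes by limma's interaction test, over all 23410 probe sets, in 6 genes (mutant minus control, log2). It was higher in the mutant for Nr4a1 by 2.31, Adh7 by 1.91 and Slc6a20a by 1.34. It was lower in the mutant for Cxcl10 at -4.31, Clec2d at -2.06 and Gpc3 at -1.21. Nr4a1 and Adh7 kept their calls when any single array was left out. The calls of Cxcl10, Clec2d, Slc6a20a and Gpc3 were each lost without most of the single arrays. All 6 were lost with all 35556 probe sets tested and without moderation of the variance. No formal test for outlying arrays was run, since groups of 3 are too small for it, and leaving out CFA mutant array 3 gave 35 probe sets higher and 41 lower.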

How the results depend on the processing

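The mutant response, 3028 probe sets higher and 3068 lower, had no call of opposite sign under any setting, but the counts and their balance moved. Without moderation of the variance 1777 were higher, at an adjusted p under 0.01 1228 were higher and 1885 lower, and at least 2-fold 141 and 663. Median centring gave 2298 higher and 3443 lower, 60% lower against 50.3% as reported, while quantile normalization gave 3203 and 2805 (46.7% lower) and trend and robust moderation 3279 and 3242. Leaving out single arrays gave 1877 to 2450 higher and 2342 to 2744 lower, fewest without naive mutant array 1. For the difference between genotypes, 3 higher and 3 lower in the mutant, the counts higher and lower were 0 and 0 with all probe sets and without moderation, 8 and 7 with trend and robust moderation, 8 and 13 with array weights, and 5 were higher among probe sets above background. Leaving out single arrays gave 2 to 35 higher and 0 to 71 lower, with 35 and 41 without CFA mutant array 3, 16 and 71 without CFA control array 3, and at most 6 and 2 without any other. Where 0 passed, limma's fit as reported had 1073 higher and 861 lower with unadjusted p-values under 0.05. Same-numbered arrays deviated with correlations of 0.002, 0 and -0.05, and differently numbered ones with -0.071 to 0.072. No pairing by number was seen, though groups of 3 arrays cannot show that there was none. A replicate block gave 2459 higher and 2772 lower, and 3 and 1 for the difference. Without single arrays, members called were 17 to 24 interferon-stimulated genes, 5 to 6 GTPases and 10 to 12 MHC class I genes higher, 9 to 11 hemidesmosome genes higher, and lower 29 to 30 envelope, 16 to 17 kallikrein, 20 to 24 barrier lipid, 17 to 20 cholesterol, 10 to 12 IL-1, 10 to 12 stress keratin and small proline-rich, 21 to 23 immediate-early, 5 to 6 EGF, 9 to 11 clock and 4 to 5 Skint genes. Among probe sets above background 2 GTPases rose, since fewer were tested. Of 209 called values of named genes, 142 kept call and direction under all 16 settings and 0 reversed. The cause of these moves was not tested otherwise.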

Other observations

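Gene families outside the lists, picked after their values were seen, also moved. Over all probe sets 12.9% were higher and 13.1% lower. Of 44 keratin-associated protein genes, which build the hair shaft, 31 fell, 21 of them at least 2-fold, and 0 rose (median -0.98, control -1.28). Of 4 inner root sheath keratins all fell, Krt71 by 2.53 and Krt25 by 2.37, and 2 of 7 hair shaft keratins did. Their naive arrays were not alike, with the keratin-associated genes averaging 5.62, 5.40 and 5.69, lowest on naive array 2, and 4.69, 4.60 and 4.65 on the CFA arrays. Hair follicles at the edge of the sampled skin were not tested as a part of this. Of 44 collagen chain genes 16 rose and 0 fell (median 0.21). Small nucleolar RNA genes were split by class, with 22 of 31 box C/D genes lower and 2 higher (median -0.59), and 10 of 20 box H/ACA genes higher and 3 lower (median 0.23).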
